A study of Homo sapiens with 12 samples.

Results

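Replication-dependent histone genes were taken as the genes on chromosome sequences whose names follow the patterns H1-1 to H1-6, or H2AC, H2BC, H3C or H4C with a number. The rule found 66 genes of the 67053 in the poly-A RNA tables, with 89 of the 250719 transcript models. They comprised 6 linker histone genes (H1) and 16 H2A, 17 H2B, 13 H3 and 14 H4 genes. All 66 lay in 3 clusters of the hg38 genome, with 11 genes at chr1:149782689-149887965, 34 at chr6:25726063-26285638 (the first chromosome 6 cluster) and 21 at chr6:27125897-27893891 (the second).

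Core histones H2A, H2B, H3 and H4 form the protein spool around which DNA is wound, and H1 binds the DNA that enters and leaves it. Cells make most of this protein in S phase, from many nearly identical intronless genes that are transcribed together at nuclear histone locus bodies. The mRNAs of these genes characteristically end in a conserved stem-loop bound by the protein SLBP rather than in a poly-A tail, although some of the genes also give polyadenylated mRNA, mainly in cells that have left the cycle. Libraries selected on poly-dT therefore show these genes through the part of their RNA that the selection retained, not through their total mRNA.

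The cells were HEK293T, a human embryonic kidney line that carries the large T antigen of SV40. They were transfected with 2 µg of a GFP reporter plasmid and harvested after 48 h, by PEI or lipofectamine, with no label saying by which in a given sample. In the BCL2L11 group the reporter held in its 3′ untranslated region a stretch of BCL2L11 that triggers degradation of a microRNA, in the TRIM9 group a trigger stretch of TRIM9, and in the GFP control group neither. Each group had 2 poly-A libraries, given as biological replicates, which makes 6 in all, and whether they came from separate cultures was not stated, so p-values measure the spread between these libraries only. The plasmid-borne stretches were visible in the tables, with BCL2L11 at 11484 and 11275 FPKM in BCL2L11 libraries against 5.40 and 6.15 in GFP libraries, and TRIM9 at 5297 and 3948 FPKM in TRIM9 libraries against 1.74 and 2.92 in GFP libraries. No pair among the 15 pairs of libraries held identical values (0 of 15).

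FPKM, the unit of all levels here, scales sequenced fragments by transcript length and library size, so levels of genes of different length can be compared, and a gene's FPKM was the sum over its models. Read counts were not in the tables used here. Within a library 1 FPKM corresponded to a mean read depth of 4.11 to 5.34 per base, lowest in the GFP libraries (4.48 and 4.11), and 83584 transcripts were above 0 in GFP replicate 1 against 99690 to 110534 in the other libraries. The libraries also fell into 2 sets by their number in the sample titles, 1 to 3 (replicate 1 of each group) and 4 to 6 (replicate 2). The labels name neither a batch nor a pairing, but 4991 of 15183 genes (32.9%) differed between the sets in limma. Of the histone genes 5 of 35 did so, and values within each set are given beside the results. Of 6 genes listed as markers of HEK293 cells, 5 reached a mean of 1 FPKM and were tested, all but PAX2, and 0 passed in any comparison. That list summed to 68.5 and 145 FPKM in BCL2L11 libraries, 75.1 and 169 in TRIM9 libraries, and 62.0 and 148 in GFP libraries. Markers of other cells were low: 1 of 6 fibroblast, 2 of 7 blood and 2 of 5 epithelial markers reached a mean of 1 FPKM. CD3E, HBB and PTPRC of blood and KRT5 of epithelium were listed at 0 in all libraries. The epithelial list summed to 2.49 and 3.92 FPKM in BCL2L11 libraries, 1.79 and 2.54 in TRIM9 libraries, and 4.09 and 2.71 in GFP libraries. One gene of it, ALB (albumin), lay lower in both TRIM9 libraries than in any other, at 0.95 and 1.93 FPKM in BCL2L11 libraries, 0.28 and 0.28 in TRIM9 libraries, and 2.06 and 1.15 in GFP libraries. Its log2 fold change was -1.0 for TRIM9 against GFP (SE 0.33, unadjusted p = 0.0178, adjusted p = 0.9999 in limma) and 0.90 for BCL2L11 against TRIM9 (unadjusted p = 0.0277), and its part in the histone result was not tested.

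Histone genes made up 0.0455% to 0.0826% of the summed FPKM of a library. Levels were spread very unevenly, with 40 of 66 genes above 0 in all 6 libraries, 31 at a mean of at least 1 FPKM and only 6 at a mean of at least 10 FPKM. The 4 highest genes, H2BC12, H1-2, H2AC18 and H2AC19, together held 53.1% to 65.4% of the FPKM of all 66. Listed at 0 in every library were 6 members, namely H1-1, H2AC1, H2AC15, H2BC1, H2BC10 and H4C13, of which H2AC1 and H2BC1 encode histones of the testis.

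H2BC12 (ENSG00000197903.8, chr6:27146361-27146855, minus strand, a single exon) encodes an H2B and had the highest mean. Its level was 94.6 and 86.5 FPKM in BCL2L11 libraries, 84.1 and 68.5 in TRIM9 libraries, and 62.6 and 88.6 in GFP libraries. The 3 groups overlapped, and H2BC12 was the highest histone gene in 5 of 6 libraries. It held 28.4% and 34.3% of the histone FPKM in BCL2L11 libraries, 37.2% and 38.4% in TRIM9 libraries, and 17.2% and 27.8% in GFP libraries.

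H1-2 (ENSG00000187837.4, chr6:26055740-26056470, minus strand, a single exon), one of the somatic linker histones, was the highest in the remaining library, GFP replicate 1. It stood at 58.7 and 28.6 FPKM in BCL2L11 libraries, 35.4 and 21.02 in TRIM9 libraries, and 83.6 and 34.2 in GFP libraries. Replicate 1 was the higher in each group, and all groups overlapped. Across groups replicate 2 minus replicate 1 was -1.0 on the log2 scale (SE 0.16, adjusted p = 0.0122 in limma).

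H2AC18 (ENSG00000203812.2, chr1:149842188-149842736, minus strand) and H2AC19 (ENSG00000272196.2, chr1:149851061-149851624, plus strand) are a duplicated pair of single-exon H2A genes. H2AC18 had 29.2 and 15.9 FPKM in BCL2L11 libraries, 14.4 and 8.10 in TRIM9 libraries, and 25.3 and 23.6 in GFP libraries. H2AC19 had 28.6 and 15.6 FPKM in BCL2L11 libraries, 14.03 and 7.95 in TRIM9 libraries, and 24.7 and 23.0 in GFP libraries. The ratio of H2AC18 to H2AC19 was 1.02 to 1.03 in all 6 libraries, so the 2 are not separate measurements and their reads may have been divided between near-identical copies. The same held for the H3 genes H3C14 and H3C15 of that cluster, with a ratio of 1.005 to 1.033.

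Next in mean level came H4C14, H4C15, H4C9, H2BC5, H2AC6, H2BC11, H3C10 and H2AC17, with means from 15.4 FPKM for H4C14 to 4.23 for H2AC17. H2AC17 spanned the widest relative range of these 12, with 0.699 FPKM in TRIM9 replicate 2 against 7.30 in GFP replicate 1. The plot of the 12 highest genes shows that a TRIM9 library was the lowest of the 6 in 10 of 12 genes, H2BC12 and H2AC6 being the others. Both TRIM9 libraries lay below both GFP libraries in 9 of 12, and below all other libraries in 5 of 12 (H2AC18, H2AC19, H4C14, H4C15 and H2BC11).

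**Figure D1:**
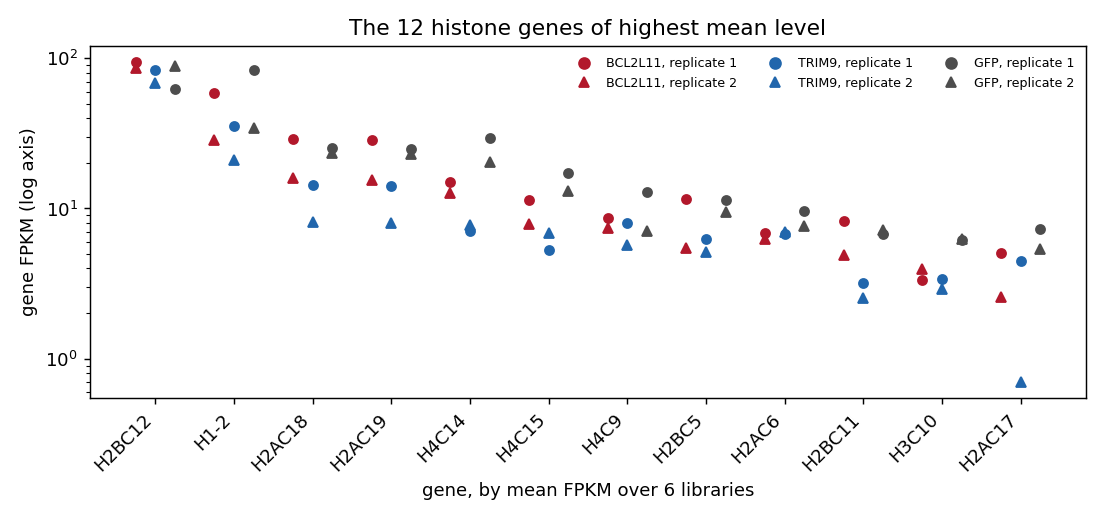
FPKM of the 12 histone genes of highest mean level (log axis) in the 2 libraries each of BCL2L11, TRIM9 and GFP cells; circles are replicate 1 and triangles replicate 2. H2BC12 lies between 62.6 and 94.6 FPKM in all groups, whereas H2AC18, H2AC19 and H4C14 lie below every GFP library in both TRIM9 libraries.

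Class by class, the share of genes with appreciable signal differed. A gene was tested if it reached 1 FPKM in at least 2 libraries, and 35 of 66 did: 2 of 6 H1, 9 of 16 H2A, 8 of 17 H2B, 7 of 13 H3 and 9 of 14 H4 genes. By cluster these were 9 of 11 on chromosome 1, 12 of 34 in the first and 14 of 21 in the second chromosome 6 cluster. The remaining 31 genes together had 5.55 and 4.95 FPKM in BCL2L11 libraries, 3.76 and 3.45 in TRIM9 libraries, and 8.78 and 6.46 in GFP libraries. At the border, H4C4, H3C1, H2BC18 and H2AC14 passed with exactly 2 libraries, while H3C13, H4C2 and H4C1 had 1 library at 1 FPKM and were not tested. The filter can favour a gene that is high in one group: 28 of the 35 reached 1 FPKM in each group, 6 reached it in BCL2L11 and GFP libraries alone (H4C8, H4C5, H2BC4, H4C4, H3C1 and H2BC18), and H2AC14 in GFP libraries alone.

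Many H2A and H2B genes sit head to head, sharing one stretch of promoter, and 10 such pairs (20 genes, with 215 to 283 bases between their starts) were found. Partners were often unequal. In the pair H2BC12 and H2AC12, 251 bases apart, mean levels were 80.8 and 1.26 FPKM, a ratio of 64.4. H2AC14 stood at 0.640 FPKM and its partner H2BC14 at 0.0187. By contrast H2AC20 and H2BC21 on chromosome 1 had means of 2.40 and 2.03 FPKM, and H2AC17 and H2BC17 had 4.23 and 3.09. Both partners were tested in 5 pairs, 1 partner in 2 pairs and neither in 3. The plot of the pairs shows that neither class was the higher throughout.

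**Figure D2:**
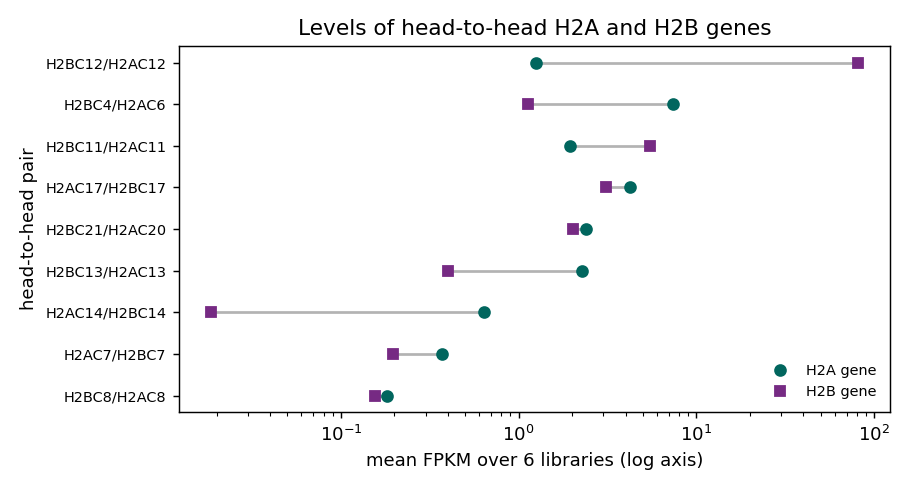
Mean FPKM over 6 libraries (log axis) of the H2A gene (circle) and the H2B gene (square) of each head-to-head pair; a line joins partners, and the pair H2AC1/H2BC1, at 0 in all libraries, is left out. Partners lie close together for H2BC21/H2AC20 and far apart for H2BC12/H2AC12, with 80.8 against 1.26 FPKM.

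Promoters of 61 of the 66 genes were found in RefSeq (GRCh38.p14), each from 250 bases before to 50 bases after the gene start, and were searched on both strands for 4 short motifs known from histone genes. The TATA box, spelled TATAAA, occurred in 42 of 61 (68.9%) against 11.5% of all 35116 promoters of that length. CCAAT occurred in 52 of 61 (85.2%) against 34.6% of all, in every H1, H2A, H2B and H3 promoter searched but in 3 of 12 H4 promoters. The octamer ATTTGCAT, the letters bound by the factor POU2F1 (OCT1) at H2B genes, occurred in 14 of 17 H2B and 11 of 15 H2A promoters, in 0 of the H1, H3 and H4 promoters, and in 1.77% of all. The H1 box AAACACAA occurred in 4 of 6 H1 promoters, in 0 of the other classes and in 1.55% of all. A match is a description of these letters and not a site of binding. Starts of head-to-head H2A and H2B genes lie 215 to 283 bases apart, so the stretches searched for partners overlap. The same match can therefore count for both partners, and the H2A and H2B counts are not independent. TATA boxes were present in 24 of 32 tested (75%) and 18 of 29 untested genes (62.1%), and octamers in 11 of 32 tested (34.4%) and 14 of 29 untested genes (48.3%). An octamer therefore stood in the promoter of H2BC12 at 80.8 FPKM and of H2BC14 at 0.0187 FPKM alike.

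These 30-base stretches show examples of the octamer, found in H2A and H2B promoters, of the H1 box, found in H1 promoters, and of the TATA box, found in all 5 classes. In the first 4 the capitals mark the octamer, read on the strand of each gene, so that the last of them, in H2BC17, appears as its reverse complement. They come from chr6:27146886-27146915 (minus strand), chr6:27132824-27132853 (minus), chr6:27814963-27814992 (plus) and chr6:27893265-27893294 (plus).
H2BC12: ctcttcaccttATTTGCATgagaggtccta
H2BC11: ctcttcaccttATTTGCATaagcgattcta
H2BC14: ttctactcctaATTTGCATaataacattta
H2BC17: gcttcctcttaATGCAAATgagctttctga

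In the linker histone genes the capitals mark the H1 box, from chr6:26056571-26056600 (minus strand) for H1-2 and chr6:26156201-26156230 (plus strand) for H1-4.
H1-2: tgaggtggaacAAACACAActtgggagcag
H1-4: tgaggtgtaacAAACACAActcgggatccg

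For the duplicated H2A genes the capitals mark the TATA box, from chr1:149842764-149842793 (minus strand) for H2AC18 and chr1:149851019-149851048 (plus strand) for H2AC19. Their promoters were identical over all 299 bases compared, those of H3C14 and H3C15 over 296 of 296, those of H4C14 and H4C15 over 300 of 300, and those of H4C11 and H4C12 over 295 of 300 (98.3%).
H2AC18: cgccgttctgtcTATAAAaaggtgaagcag
H2AC19: cgccgttctgtcTATAAAaaggtgaagcag

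With the TRIM9 trigger the histone genes stood lower than in GFP cells in 4 of 5 classes, with no overlap between the libraries, although no single gene passed the test. For H4 the lack of overlap held over all transcript models but not over models of 1 exon alone. For H1 the gap was narrow, with 38.0 FPKM in TRIM9 replicate 1 against 39.7 in GFP replicate 2. It does not hold with TMM (trimmed mean of M values), whose divisors were 0.957 and 1.12 for these libraries. All 66 genes together had 226 and 178 FPKM in TRIM9 libraries against 365 and 319 in GFP libraries, without overlap (202 ± 33.9 against 342 ± 32.4, mean ± SD, n = 2 each), a log2 ratio of -0.76. H2BC12 weighed heavily in that sum: without it the 65 other genes had 142 and 110 FPKM in TRIM9 libraries against 302 and 231 in GFP libraries, a log2 ratio of -1.08. A sum of FPKM over 2 against 2 libraries was given no test, since the smallest exact p of that design is 0.33. In bulk RNA, fewer cells in S phase, less histone RNA per cell and different retention by the poly-dT selection cannot be told apart.

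Linker histones summed to 38.0 and 22.9 FPKM in TRIM9 libraries against 88.7 and 39.7 in GFP libraries (log2 ratio -1.08), and without H1-2 the ratio was -1.25. H2A genes summed to 46.0 and 30.5 FPKM in TRIM9 libraries against 80.7 and 73.5 in GFP libraries (-1.01). H3 genes summed to 10.1 and 12.6 FPKM in TRIM9 libraries against 24.8 and 27.2 in GFP libraries (-1.20). These 3 classes did not overlap between the groups, and neither did H4. H4 genes summed to 33.6 and 29.0 FPKM in TRIM9 libraries against 79.0 and 58.0 in GFP libraries (-1.13). H2B was the exception, with 98.6 and 83.5 FPKM in TRIM9 libraries against 91.8 and 121 in GFP libraries (-0.22). Its 16 genes other than H2BC12 had 14.5 and 14.9 FPKM in TRIM9 libraries against 29.2 and 32.3 in GFP libraries (-1.06), without overlap.

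The clusters followed the same division. On chromosome 1 the 11 genes summed to 48.3 and 37.4 FPKM in TRIM9 libraries against 110 and 95.1 in GFP libraries (log2 ratio -1.26). In the first chromosome 6 cluster the sums were 60.2 and 44.8 FPKM in TRIM9 libraries against 143 and 78.1 in GFP libraries (-1.07). The second chromosome 6 cluster, which holds H2BC12, had 118 and 96.3 FPKM in TRIM9 libraries against 112 and 146 in GFP libraries (-0.27), and without H2BC12 its ratio was -0.80. Sums of that last cluster overlapped between the groups, and those of the other clusters did not.

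**Figure D3:**
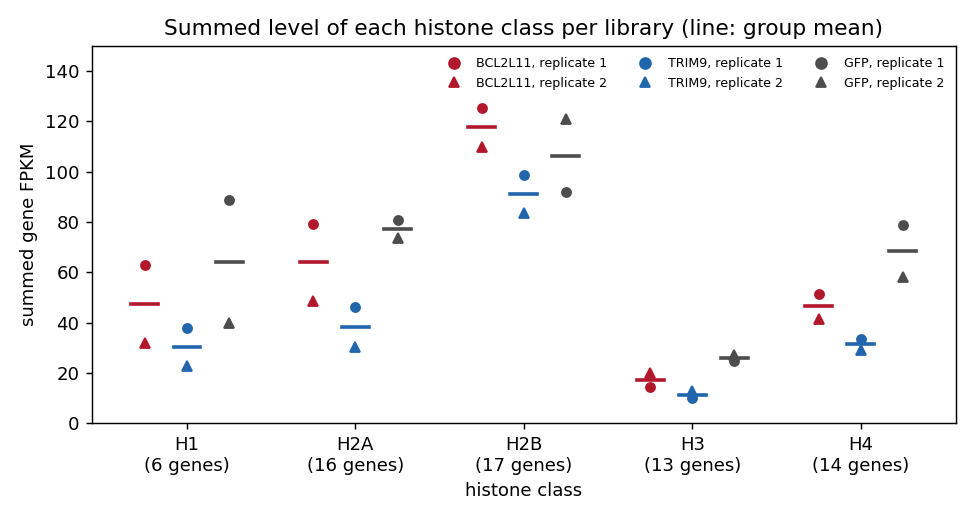
Summed FPKM of each histone class in each library (circles replicate 1, triangles replicate 2; horizontal lines are group means of n = 2). TRIM9 libraries lie below both GFP libraries in H1, H2A, H3 and H4 but overlap with them in H2B.

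Gene by gene, 0 of 35 tested histone genes passed at an adjusted p of 0.05 in limma on log2(FPKM + 1), where 0.00659% of all 15183 genes did (1 gene, TRIM9). At an unadjusted p below 0.05 there were 17 of 35, all lower in TRIM9 libraries, against 0.843% of all genes, a count that ranged from 8 (without GFP replicate 2 or TRIM9 replicate 2) to 15 when single libraries were left out. It was 9 without GFP replicate 1 and 10 without TRIM9 replicate 1. H4C8 and H2AC14, which did not reach 1 FPKM in TRIM9 libraries, were among the 17. Both TRIM9 libraries lay below both GFP libraries in 24 of 35 histone genes, against 11.2% of all genes, and above them in 0 of 35, against 6.66% of all genes. Of the 24, 5 did not reach 1 FPKM in TRIM9 libraries. Both the 17 and the 24 count H2AC18 and H2AC19 as separate genes, and likewise H3C14 and H3C15, although neither pair gives separate measurements. Both also count H4C14 and H4C15, whose promoters were identical, and whether these 2 genes share reads was not tested. Restricted to genes of mean FPKM of at least 1, the count without overlap was 22 of 31 lower against 11.1% of all such genes. That limit too can be passed through the higher groups, as H4C8 did. Of the 28 histone genes that reached 1 FPKM in each group, 19 lay lower without overlap (share of all genes not computed). The log2 fold change was below 0 for 31 of 35, against 55.8% of all genes, with a median of -0.77 against -0.04 over all genes tested. Without the filter on low values, the 60 histone genes above 0 in any library had a median of -0.36, against 0.00 over 39154 genes.

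H4C8 (ENSG00000158406.5, chr6:26277609-26285638, minus strand), an H4 gene with models of up to 3 exons, had the lowest p. It stood at 0.645 and 0.681 FPKM in TRIM9 libraries against 3.87 and 4.15 in GFP libraries, a log2 fold change of -1.59 (SE 0.27, n = 2 each, unadjusted p = 5.98e-04, adjusted p = 0.9999 in limma). Replicates lay close together and the groups far apart, and the change was -1.57 within the first library set and -1.62 within the second. However, H4C8 reached 1 FPKM in BCL2L11 and GFP libraries alone. It thus entered the test only through the groups where it was higher, and its contrast is a description. The scale of FPKM plus 1 understates changes of such low genes.

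H4C14 (ENSG00000270882.2, chr1:149832659-149839767, plus strand) is the highest H4 gene. It had 7.12 and 7.80 FPKM in TRIM9 libraries against 29.2 and 20.3 in GFP libraries, a log2 fold change of -1.59 (SE 0.31, unadjusted p = 0.00132, adjusted p = 0.9999 in limma), and -1.90 and -1.27 within the sets. H3C2 (ENSG00000286522.2, chr6:26031589-26032099, minus strand, a single exon) had 1.43 and 1.82 FPKM in TRIM9 libraries against 6.48 and 4.61 in GFP libraries (-1.31, SE 0.31, unadjusted p = 0.00393). The linker histone gene H1-4 (ENSG00000168298.7, chr6:26156329-26157115, plus strand, a single exon) had 1.91 and 1.31 FPKM in TRIM9 libraries against 5.10 and 4.68 in GFP libraries (-1.18, SE 0.33, unadjusted p = 0.00854). In each of these 3 genes both TRIM9 libraries were below both GFP libraries, and both sets gave the same direction.

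Among the other highly expressed genes, H2AC18 and H2AC19 each had a log2 fold change of -1.10 (SE 0.40), H2BC11 of -1.05 (SE 0.34) and H3C10 of -0.80 (SE 0.29), without overlap. H2BC11 had 3.18 and 2.54 FPKM in TRIM9 libraries against 6.72 and 7.23 in GFP libraries. H3C10 had 3.38 and 2.90 FPKM in TRIM9 libraries against 6.18 and 6.25 in GFP libraries. H4C9 had 8.05 and 5.72 FPKM in TRIM9 libraries against 12.9 and 7.09 in GFP libraries, which overlapped (-0.45, SE 0.37). H2AC6, a gene measured through models of 2 exons, had 6.79 and 6.97 FPKM in TRIM9 libraries against 9.59 and 7.67 in GFP libraries (-0.28, SE 0.29).

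The 4 genes with a fold change above 0 were H4C11, H2BC12, H4C12 and H3C12, and all of them overlapped between the groups. H4C11 had 5.12 and 2.92 FPKM in TRIM9 libraries against 1.17 and 4.58 in GFP libraries (log2 fold change 0.49, SE 0.51), with opposite signs within the sets. H4C12 had 3.19 and 1.73 FPKM in TRIM9 libraries against 1.15 and 4.09 in GFP libraries (0.03, SE 0.48). Both genes were lowest in GFP replicate 1, and the ratio of H4C11 to H4C12 ran from 1.01 to 1.68 over the libraries. Their promoters differed in few bases, their transcripts were not compared, and whether they share reads was not tested. H2BC12 was at 0.03 (SE 0.32), with 0.42 and -0.37 within the sets, and H3C12 at 0.01 (SE 0.57).

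**Figure D4:**
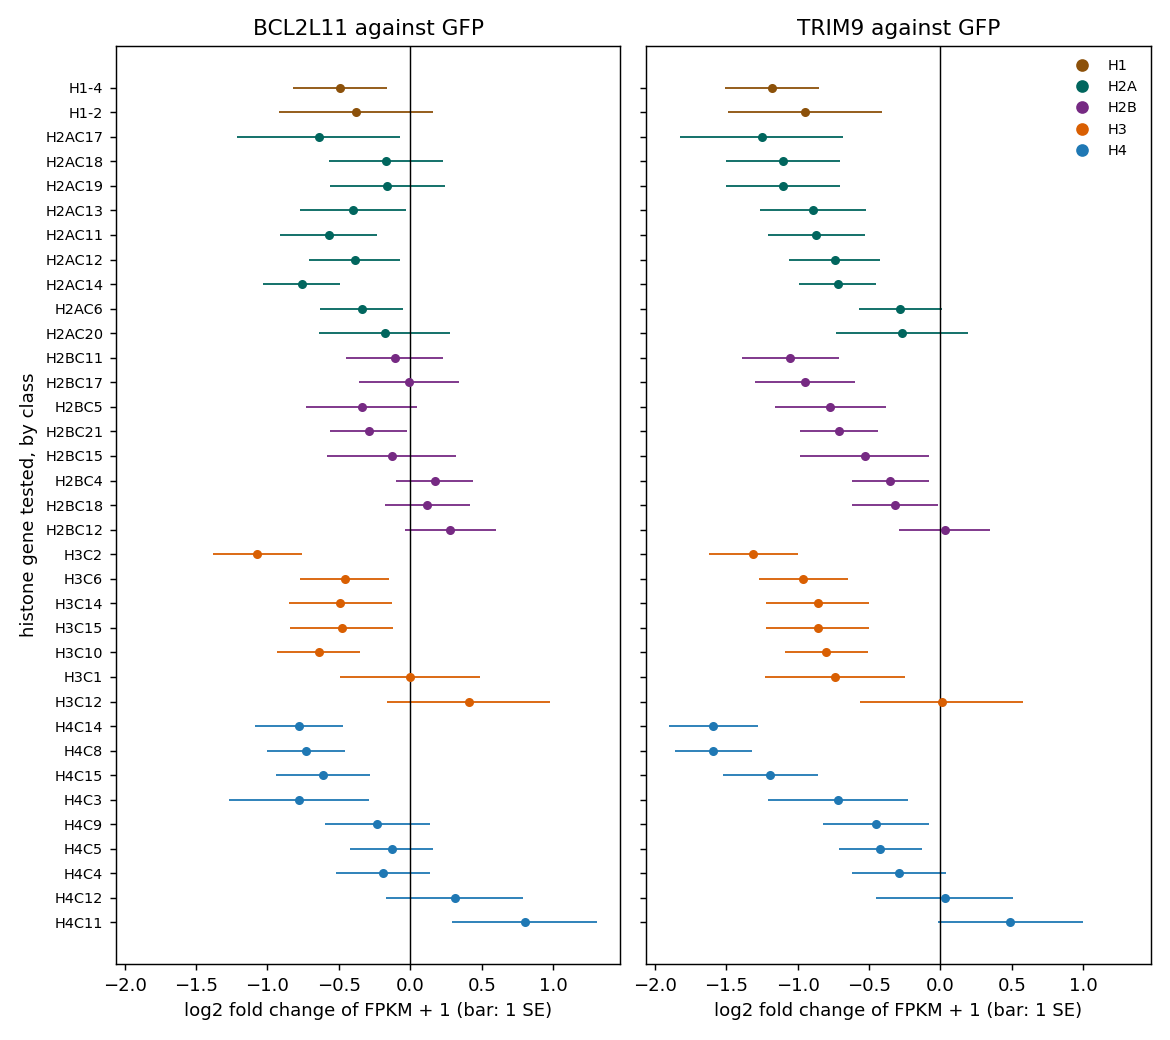
Log2 fold change of FPKM + 1 for each of the 35 tested histone genes, coloured by class, for BCL2L11 against GFP (left) and TRIM9 against GFP (right); bars are 1 SE of the limma fit, n = 2 libraries per group. Both comparisons use the same GFP libraries; in the right panel 31 genes lie left of 0, down to -1.59 for H4C8 and H4C14, and H2BC12 lies at 0.03.

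With the BCL2L11 trigger the summed levels of H3 and H4 lay below both GFP libraries, and those of H1, H2A and H2B overlapped with GFP. For H4 this lack of overlap did not hold over models of 1 exon alone. Nor did it hold with TMM, whose divisors were 0.930 for BCL2L11 replicate 1 and 1.12 for GFP replicate 2. All 66 genes had 333 and 252 FPKM in BCL2L11 libraries against 365 and 319 in GFP libraries, which overlapped (292 ± 57.4 against 342 ± 32.4, mean ± SD, n = 2 each), a log2 ratio of -0.23. H3 genes had 14.2 and 20.0 FPKM in BCL2L11 libraries against 24.8 and 27.2 in GFP libraries (log2 ratio -0.60), and H4 genes 51.4 and 41.6 against 79.0 and 58.0 in GFP libraries (-0.56), both without overlap. H1 genes (62.9 and 31.8 FPKM in BCL2L11 libraries, log2 ratio -0.44), H2A genes (79.3 and 48.6, -0.27) and H2B genes (125 and 110, 0.14) overlapped with GFP. The same GFP libraries serve this comparison and the one with TRIM9, so the 2 are not independent.

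In limma 0 of 35 histone genes passed, where 0.00659% of all genes did (1 gene, BCL2L11), and 4 of 35 had an unadjusted p below 0.05, all lower, against 0.323% of all genes. Of these 4, H2AC14 and H4C8 did not reach 1 FPKM in every group. The count was 0 without BCL2L11 replicate 2 or GFP replicate 1, 1 without BCL2L11 replicate 1, and 2 without TRIM9 replicate 1 or TRIM9 replicate 2. With the replicate block it was 9, against 2.72% of all genes. Both BCL2L11 libraries lay below both GFP libraries in 14 of 35 histone genes, against 12.3% of all genes, and above them in 1 of 35 (H2BC4), against 4.44% of all genes. The 14 include H4C14 and H4C15, and whether these 2 genes share reads was not tested. Restricted to genes of mean FPKM of at least 1, the count without overlap was 13 of 31 lower, against 12.3% of all such genes. Of the 28 histone genes that reached 1 FPKM in each group, 12 lay lower without overlap (share of all genes not computed). A fold change below 0 was seen for 28 of 35, against 62.7% of all genes. The median was -0.34, against -0.08 over all genes tested, and -0.17 for the 60 genes without the filter, against 0.00.

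H3C2 had the lowest p, with 2.34 and 1.86 FPKM in BCL2L11 libraries against 6.48 and 4.61 in GFP libraries (log2 fold change -1.07, SE 0.31, unadjusted p = 0.0108, adjusted p = 0.9999 in limma), and -1.16 and -0.97 within the sets. H2AC14, an H2A gene tested only through its GFP libraries, had 0.265 and 0.367 FPKM in BCL2L11 libraries against 1.04 and 1.43 in GFP libraries (-0.76, SE 0.27). H4C8 had 2.05 and 1.98 FPKM in BCL2L11 libraries against 3.87 and 4.15 in GFP libraries (-0.73, SE 0.27). H4C14 had 14.97 and 12.76 FPKM in BCL2L11 libraries against 29.2 and 20.3 in GFP libraries (-0.78, SE 0.31). None of these 4 overlapped between the groups. The highest fold changes were those of H4C11 (0.80, SE 0.51), H3C12 (0.41, SE 0.57), H4C12 (0.31, SE 0.48) and H2BC12 (0.28, SE 0.32), all with overlap.

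The triggers were also set against each other, where sums and fold changes do not involve the GFP libraries. Their SE and p-values do, since all 6 libraries share 1 fit. The filter also counts GFP libraries, and H2AC14 was tested through these alone. Histone genes summed to 333 and 252 FPKM in BCL2L11 libraries against 226 and 178 in TRIM9 libraries, without overlap, a log2 ratio of 0.53. The classes H2A (log2 ratio 0.74), H3 (0.59), H4 (0.57) and H2B (0.37) did not overlap, while H1 (0.64) did. On chromosome 1 the sums were 95.7 and 62.7 FPKM in BCL2L11 libraries against 48.3 and 37.4 in TRIM9 libraries (0.89), the largest ratio of the 3 clusters.

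Here too 0 of 35 histone genes passed in limma, where 0.0132% of all genes did (2 genes, BCL2L11 and TRIM9), and 4 of 35 had an unadjusted p below 0.05, all higher in BCL2L11 libraries, against 0.448% of all genes. Both BCL2L11 libraries lay above both TRIM9 libraries in 18 of 35 histone genes, against 5.72% of all genes, and below them in 0 of 35, against 8.44%. The fold change was above 0 for 32 of 35, against 41.4% of all genes, with a median of 0.40 against -0.04. Of the 18, 5 were among the genes that reached 1 FPKM in BCL2L11 and GFP libraries alone (H4C8, H4C5, H2BC4, H3C1 and H2BC18). The 18 also count H2AC18 and H2AC19 as separate genes, although they are not separate measurements. H4C14 and H4C15 are among the 18 too, and whether these 2 genes share reads was not tested. Restricted to genes of mean FPKM of at least 1, the count without overlap was 16 of 31, against 5.39% of all such genes. Of the 28 histone genes that reached 1 FPKM in each group, 13 lay higher without overlap (share of all genes not computed). The 4 at an unadjusted p below 0.05 became 1 without BCL2L11 replicate 1 or TRIM9 replicate 2, and 10 with the replicate block, against 1.59% of all genes. H4C8, one of those 5, had 2.05 and 1.98 FPKM in BCL2L11 libraries against 0.645 and 0.681 in TRIM9 libraries (log2 fold change 0.86, SE 0.27, unadjusted p = 0.0156). H2BC11 had 8.21 and 4.92 FPKM in BCL2L11 libraries against 3.18 and 2.54 in TRIM9 libraries (0.94, SE 0.34). H2BC17 had 3.40 and 4.23 FPKM in BCL2L11 libraries against 0.931 and 2.24 in TRIM9 libraries (0.94, SE 0.35). H4C14 had 14.97 and 12.76 FPKM in BCL2L11 libraries against 7.12 and 7.80 in TRIM9 libraries (0.81, SE 0.31), and these 4 genes did not overlap. H2AC6, H4C3 and H2AC14 were the only genes with a fold change below 0, at -0.06, -0.06 and -0.04, all with overlap.

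Which transcript models carried the signal differed between genes. Of the 66 genes 12 have a spliced model, and 11 of these 12 were tested, against 24 of the 54 without one. Spliced models summed to 49.1 and 43.1 FPKM in BCL2L11 libraries, 26.8 and 30.4 in TRIM9 libraries, and 77.4 and 66.9 in GFP libraries, which is 11.85% to 21.2% of the histone FPKM. Models of 1 exon summed to 284 and 209 FPKM in BCL2L11 libraries, 200 and 148 in TRIM9 libraries, and 288 and 252 in GFP libraries. In these sums over all histone genes TRIM9 libraries were thus below GFP libraries in both kinds of model, without overlap.

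The H4 genes were those where the kind of model mattered most. H4C14 had 98.8% of its FPKM, H4C8 93.8% and H4C15 79.9% in spliced models. In models of 1 exon alone the log2 ratio of summed H4 levels was -0.13 for BCL2L11 against GFP and -0.47 for TRIM9 against GFP, compared with -0.56 and -1.13 with all models. Those H4 sums were 28.6 and 19.6 FPKM in BCL2L11 libraries, 22.3 and 15.8 in TRIM9 libraries, and 31.1 and 21.8 in GFP libraries. Both trigger groups overlapped with GFP there. H4C15 itself (11.5 and 7.93 FPKM in BCL2L11, 5.32 and 6.91 in TRIM9, 17.3 and 13.2 in GFP libraries, all models) had log2 fold changes of -0.61 and -1.19 against GFP with all models and of 0.47 and 0.32 in its model of 1 exon.

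H2BC5, an H2B gene with a distant second exon in one of its models, showed a similar split. Its spliced model had 9.18 and 3.66 FPKM in BCL2L11 libraries, 3.74 and 3.10 in TRIM9 libraries, and 10.1 and 8.56 in GFP libraries. Its model of 1 exon had 2.38 and 1.76 FPKM in BCL2L11 libraries, 2.51 and 2.00 in TRIM9 libraries, and 1.28 and 0.891 in GFP libraries. The spliced model was thus lower and the other one higher in both TRIM9 libraries than in both GFP libraries. No source used here gives the strand of the reads or how reads shared by models were divided. Overlapping members are therefore uncertain, namely H4C14 with H3C14 and H4C15 with H3C15 (230 bases each, opposite strands), H2BC15 with H2AC15 and H2AC16, and H3C12 with H2AC17.

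Lists of other genes of the histone system had medians nearer to 0, with single genes farther out. Genes for histone variants, among them H3-3A, H2AZ1 and H2AX, had a median log2 fold change of -0.01 in BCL2L11 and 0.00 in TRIM9 against GFP (11 tested). With FPKM rescaled by TMM these medians were 0.09 and 0.06. The variant of lowest p in both comparisons was the linker histone gene H1-10, with 148 and 109 FPKM in BCL2L11 libraries, 215 and 96.7 in TRIM9 libraries, and 48.9 and 118 in GFP libraries. Its log2 fold change was 0.73 (SE 0.55) in BCL2L11 and 0.91 (SE 0.55) in TRIM9, above 0 where most histone genes were below it, and its libraries overlapped between the groups. H3-3B, which encodes the H3.3 protein, had 267 and 281 FPKM in BCL2L11 libraries, 234 and 223 in TRIM9 libraries, and 254 and 288 in GFP libraries. Genes for processing and transcription of histone mRNA had medians of -0.17 in BCL2L11 and -0.12 in TRIM9 libraries (20 tested). SLBP had 51.7 and 71.5 FPKM in BCL2L11 libraries, 50.3 and 75.9 in TRIM9 libraries, and 70.7 and 75.3 in GFP libraries, and the lowest p in TRIM9 was that of ZNF473, a protein of the machinery that cleaves histone pre-mRNA (log2 fold change -0.50, SE 0.29). Histone chaperones had medians of -0.17 and -0.10 (15 tested), with HIRA, the chaperone of H3.3, at -0.24 (SE 0.27) in BCL2L11 and -0.31 (SE 0.27) in TRIM9. The histone genes H2AW, H2BU1 and H4-16, whose names fall outside the rule, had a median of -0.23 in BCL2L11 and -0.47 in TRIM9, with H4-16 at -0.60 (SE 0.43) in TRIM9. In limma 0 genes of these 4 lists passed, and 0 had an unadjusted p below 0.05.

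Genes of S phase and replication licensing stand beside the histone result because histone mRNA is made in that phase. Of 22 tested, 17 in BCL2L11 (against 62.7% of all genes) and 19 in TRIM9 (against 55.8%) had a fold change below 0, with medians of -0.15 and -0.17, and 0 passed or had an unadjusted p below 0.05 in limma. Both BCL2L11 libraries lay below both GFP libraries in 7 of 22, against 12.3% of all genes, and both TRIM9 libraries did so in 5 of 22, against 11.2%. CDC6, which loads the replicative helicase, had 23.8 and 27.5 FPKM in BCL2L11 libraries, 19.9 and 24.3 in TRIM9 libraries, and 36.2 and 31.8 in GFP libraries. Its log2 fold change was -0.40 (SE 0.29) in BCL2L11 and -0.60 (SE 0.29) in TRIM9. MCM6, a helicase subunit, had 44.0 and 48.4 FPKM in BCL2L11 libraries, 42.5 and 50.3 in TRIM9 libraries, and 63.1 and 60.0 in GFP libraries (-0.41 in both comparisons). PCNA, the replication clamp, had 233 and 235 FPKM in BCL2L11 libraries, 220 and 204 in TRIM9 libraries, and 266 and 241 in GFP libraries. The part of S phase in the histone result was not tested.

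Levels of abundant RNAs without a poly-A tail varied widely between groups and between libraries. RN7SK had 182 and 42.0 FPKM in BCL2L11 libraries, 16.6 and 7.11 in TRIM9 libraries, and 202 and 70.0 in GFP libraries, lower in both TRIM9 libraries than in any other (log2 fold change -3.33, SE 0.80, unadjusted p = 0.00401, adjusted p = 0.9999 in limma). With the replicate block for the library sets RN7SK passed, at an adjusted p of 0.0499 in limma. RPPH1, the RNA of RNase P, had 15.5 and 6.17 FPKM in BCL2L11 libraries, 3.71 and 1.68 in TRIM9 libraries, and 10 and 13.0 in GFP libraries (-1.80, SE 0.49). The signal recognition particle RNA RN7SL2 went another way, with 416 and 24.1 FPKM in BCL2L11 libraries, 92.7 and 27.1 in TRIM9 libraries, and 20.2 and 43.2 in GFP libraries. In TRIM9 against GFP 4 of the 7 tested had a fold change below 0, against 55.8% of all genes, with a median of -0.61. Both TRIM9 libraries lay below both GFP libraries in 3 of 7 (RN7SK, RPPH1 and RMRP), against 11.2% of all genes. They lay above them in 0 of 7, against 6.66%. RMRP had 26.75 and 2.93 FPKM in BCL2L11 libraries, 0.47 and 0.82 in TRIM9 libraries, and 18.18 and 2.36 in GFP libraries (-2.3, SE 1.05). In limma 2 of 7 had an unadjusted p below 0.05, both lower, against 0.843% of all genes. In BCL2L11 against GFP 5 of 7 were above 0, against 37.3% of all genes, with a median of 0.61. In BCL2L11 against TRIM9 all 7 were above 0, against 41.4% of all genes, with a median of 1.22, and RN7SK, RPPH1 and RMRP had an unadjusted p below 0.05 in limma, with 0 passing. The list as a whole summed to 981 and 106 FPKM in BCL2L11 libraries, 211 and 72.3 in TRIM9 libraries, and 297 and 174 in GFP libraries. The part of retained RNA without a tail in the histone result was not tested.

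**Figure D5:**
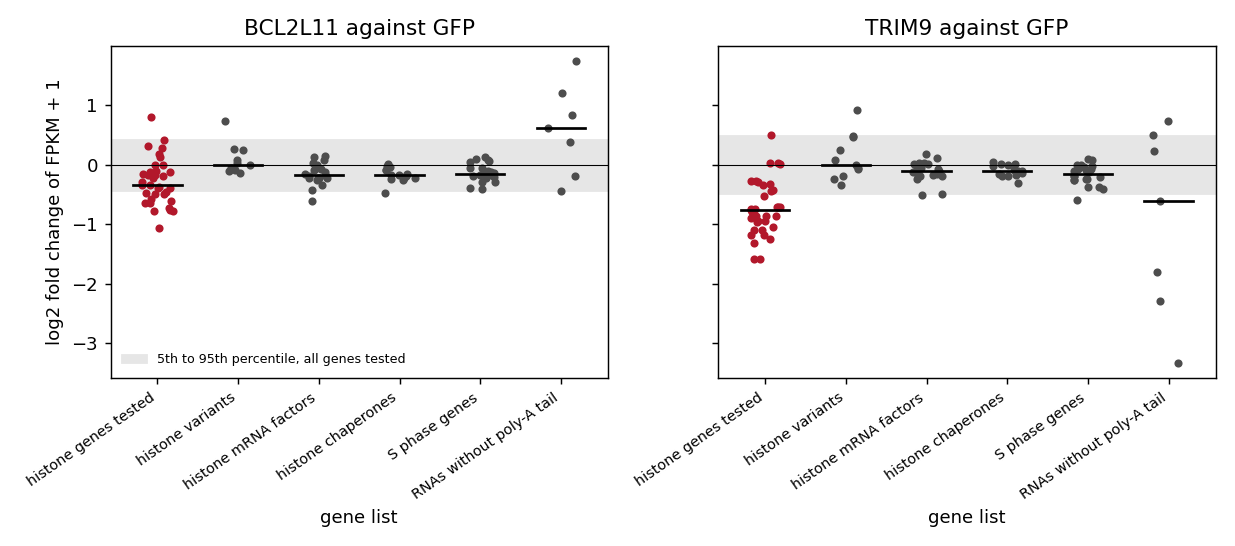
Log2 fold change of FPKM + 1 of each tested gene in 6 lists, for BCL2L11 against GFP (left) and TRIM9 against GFP (right), with lines at list medians and a grey band from the 5th to the 95th percentile of all 15183 genes. In TRIM9 the histone genes have a median of -0.77 and RNAs without a poly-A tail one of -0.61, while variants, mRNA factors, chaperones and S phase genes have medians between -0.17 and 0.00.

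The authors' deposited table for the TRIM9 trigger over GFP held 11 histone genes among 6131 genes, 10 of them lower (against 53% of all its genes), with a median log2 fold change of -1.23 against -0.02 for all its genes. In the authors' deposited table for the BCL2L11 trigger over GFP, 9 of 5930 genes were histone genes, 8 of them lower (against 53.4% of all), with a median of -0.81 against -0.04. H4C14 stood at a log2 fold change of -1.53 in the authors' deposited table for TRIM9 and at -0.97 in that for BCL2L11, and H2BC12, the gene that was not lower, at 0.12 and 0.49. A p-value below 0.05 was given to 2 histone genes in each of the authors' deposited tables, where 2.48% of all genes for TRIM9 and 3.52% for BCL2L11 had one, and a q-value below 0.05 to 0 genes in each. These tables were made from the same libraries and give no independent support.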

How the data were processed

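Poly-A RNA libraries of HEK293T were used; the small RNA libraries were not analysed here. The submitters' processing notes name hg38, STAR, StringTie 2.1.3, cutadapt 3.4 and DESeq2 1.20.0. In the deposited transcript tables each model has, per the file headers, an FPKM and a coverage signal, its mean depth of reads. The authors' deposited gene tables list some of the genes with a fold ratio, the log2 of that ratio, and p-value and q-value columns, per the file headers, and no source used here names their tool or filter.

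Gene FPKM was the sum over models. Where 2 or more libraries reached 1 FPKM (15183 of 67053 genes), log2(FPKM + 1) was fitted in limma 3.58.1 (R 4.3.3, trend, group only, 6 libraries in 1 fit), with two-sided p adjusted by Benjamini-Hochberg within each comparison at 0.05. The fit was also run on simulated data, which held no difference between the library sets and are not used as support here. Groups came from the sample labels. Replicate numbers follow accession order and pair nothing by the labels. The histone genes and the other gene lists were chosen with earlier results of these data known. Genes were named by rule: the 12 of highest mean FPKM, up to 4 of lowest p per comparison and direction, those at 0, those at the border of the filter and up to 4 of lowest p per other list. Others were chosen after their values were seen, namely H4C15 and H2BC5 by model, H2BC14, H2BC4, the other overlapping or paired genes, H3-3B, SLBP, PCNA, and RN7SL2 in TRIM9. Alternatives were FPKM rescaled by TMM (trimmed mean of M values), no filter or one of 5 FPKM, a pseudocount of 0.1, a fit without trend or on the compared groups alone, a replicate block for the library sets, models of 1 exon, assembled chromosomes, leaving out each library, leaving out the highest gene or the 4 highest genes from sums and, chosen after the data were seen, duplicated copies summed and TMM with the term for the sets. Promoters came from RefSeq tables of GRCh38.p14. Python 3.11.15 with pandas 2.3.3 was used for the tables.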

Additional observations from a re-analysis of the deposited data

How the results depend on the processing

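The number of histone genes that passed was 0 in all 3 comparisons under every alternative run, leaving out each library included. Over all genes the number that passed for TRIM9 against GFP, 1 as reported, was 4 with the compared groups alone, 6 with the replicate block for library sets, 6 with that block and TMM, 0 in models of 1 exon and 1 to 5 without single libraries (5 without BCL2L11 replicate 1 or 2). It was 0 in models of 1 exon for BCL2L11 against GFP and for BCL2L11 against TRIM9, stood at 1 in the first and 2 in the second without any single library, and was 6 with the block and TMM for BCL2L11 against TRIM9.

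Under the replicate block (library sets), TRIM9 against GFP had 22 of 35 histone genes at an unadjusted p below 0.05, lower, against 4.77% of all genes, and the adjusted p of H4C8 was 0.167 and that of H4C14 was 0.281 in limma. Of the other gene lists, 1 gene passed under the block and not without it, RN7SK for TRIM9 against GFP (adjusted p = 0.0499). The labels do not pair the samples. Deviations from the group means correlated between the groups at 0.83 (BCL2L11 and TRIM9), 0.583 (BCL2L11 and GFP) and 0.493 (TRIM9 and GFP) over 15183 genes, a hint from the data and not the design. The numbers that passed under the block were 1, 6 and 3 over all genes for BCL2L11 against GFP, TRIM9 against GFP and BCL2L11 against TRIM9.

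The log2 ratio of summed levels for TRIM9 against GFP was -1.08 without H2BC12 and -0.69 with TMM. TMM also brought the median of all genes for BCL2L11 against GFP to 0.00 and that of the tested histone genes to -0.25. The median of the tested histone genes was -0.84 to -0.71 for TRIM9, -0.40 to -0.25 for BCL2L11 and 0.35 to 0.50 for BCL2L11 against TRIM9 without single libraries, and -1.17 for TRIM9 at a pseudocount of 0.1.

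Counted per named gene, comparison and alternative setting, 989 fold changes kept their direction and 39 turned. Some settings, such as the fit without trend and the replicate block, cannot alter the fold change. Against GFP with BCL2L11, H2BC17 turned to 0.06 with TMM, with or without the block, and in models of 1 exon H2BC5 was 0.56 and H4C15 0.47. With TRIM9, models of 1 exon gave 0.65 for H2BC5, 0.32 for H4C15 and -0.50 for H3C12, and H3C12 was -0.03 at a pseudocount of 0.1. BCL2L11 against TRIM9 was -0.09 for H2BC5 in models of 1 exon. The cause of these turns was not tested.

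Without single libraries, BCL2L11 against GFP ranged over both signs for H1-2 (-1.01 to 0.26), H2AC18 (-0.59 to 0.25), H2AC19 (-0.58 to 0.25), H2BC11 (-0.43 to 0.21), H2BC17 (-0.14 to 0.11), H2BC5 (-0.83 to 0.14), H3C12 (-0.13 to 0.96), H4C12 (-0.31 to 0.93) and H4C9 (-0.62 to 0.16). TRIM9 against GFP did so for H2BC12 (-0.22 to 0.27), H3C12 (-0.61 to 0.63), H4C11 (-0.19 to 1.18), H4C12 (-0.59 to 0.65) and H4C3 (-1.47 to 0.03). BCL2L11 against TRIM9 did so for H2AC14 (-0.23 to 0.15), H2AC17 (-0.23 to 1.45), H2BC5 (-0.05 to 0.92), H3C12 (-0.22 to 1.02), H4C11 (-0.02 to 0.62), H4C12 (-0.03 to 0.59) and H4C3 (-0.22 to 0.09). The tables hold no read counts, so no counting error could be given for low genes, and with 2 libraries a group the spread rests on few values.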
